A study of Mus musculus with 6 samples.

Results

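The inflammatory chemokines and myeloid growth factors were 10 of the 23352 genes measured in stromal cells of the mouse omentum. They were taken by symbol from the expression tables and comprised *Ccl2*, *Ccl7*, *Ccl11*, *Cxcl1*, *Cxcl2*, *Cxcl5*, *Cxcl9*, *Cxcl10*, *Il6* and *Csf1*. RNA-seq was performed on 6 populations sorted from wild-type C57BL/6 mice, with 1 library for each. P1, P2 and P3 were CD45-CD140a+CD105+ cells with high, intermediate and low aldehyde dehydrogenase (ALDH) activity. P4 and P5 were CD45-CD140a+CD105- cells with intermediate and low ALDH activity. P6 consisted of CD45-CD140a low ALDH+ cells, for which CD105 was not part of the gate. The age of the mice and the number pooled for each library were not given in the sources used here.

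Inflammatory chemokines are small secreted proteins that guide leukocytes through G protein-coupled receptors. CCL2 and CCL7 act on CCR2 of monocytes, CCL11 on CCR3 of eosinophils, and CXCL1, CXCL2 and CXCL5 on CXCR2 of neutrophils, whereas CXCL9 and CXCL10 act on CXCR3 of activated T cells and NK cells. IL-6 signals through gp130, and CSF1 maintains monocytes and macrophages through CSF1R. Fibroblasts make many of these factors after exposure to TNF, IL-1 or interferon, through NF-kB and STAT proteins. The omentum contains milky spots, clusters of leukocytes and stromal cells that exchange leukocytes with the peritoneal cavity.

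Transcript levels were expressed as FPKM, fragments per kilobase of transcript scaled to the mapped reads of the library, which allows levels to be compared between genes per length. The steps between low FPKM values gave estimated depths for P1 to P6 of 53.3, 61.6, 60.5, 58.6, 61.6 and 36.9, in units of 1000000 reads. Intervals beside ratios are exact 95% binomial intervals from the reads so estimated, and they cover counting error only. With 1 library for each population, no difference had a replicate check and no p-value was computed.

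The transcripts that correspond to the gates followed the labels. *Pdgfra*, which encodes CD140a, was at 152, 154, 153, 119 and 117 FPKM in P1 to P5 and at 5.36 FPKM in P6. *Eng*, which encodes CD105, was at 52.4, 52.2 and 42.6 FPKM in P1 to P3 and below 1 FPKM in P4, P5 and P6. The leukocyte gene *Ptprc* (CD45) reached at most 0.755 FPKM, in P6. *Aldh1a2* was at 469 FPKM in P1, the highest level, but it did not follow the ALDH gate below that, with 78.8, 134, 285, 145 and 209 FPKM in P2 to P6.

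**Figure D1:**
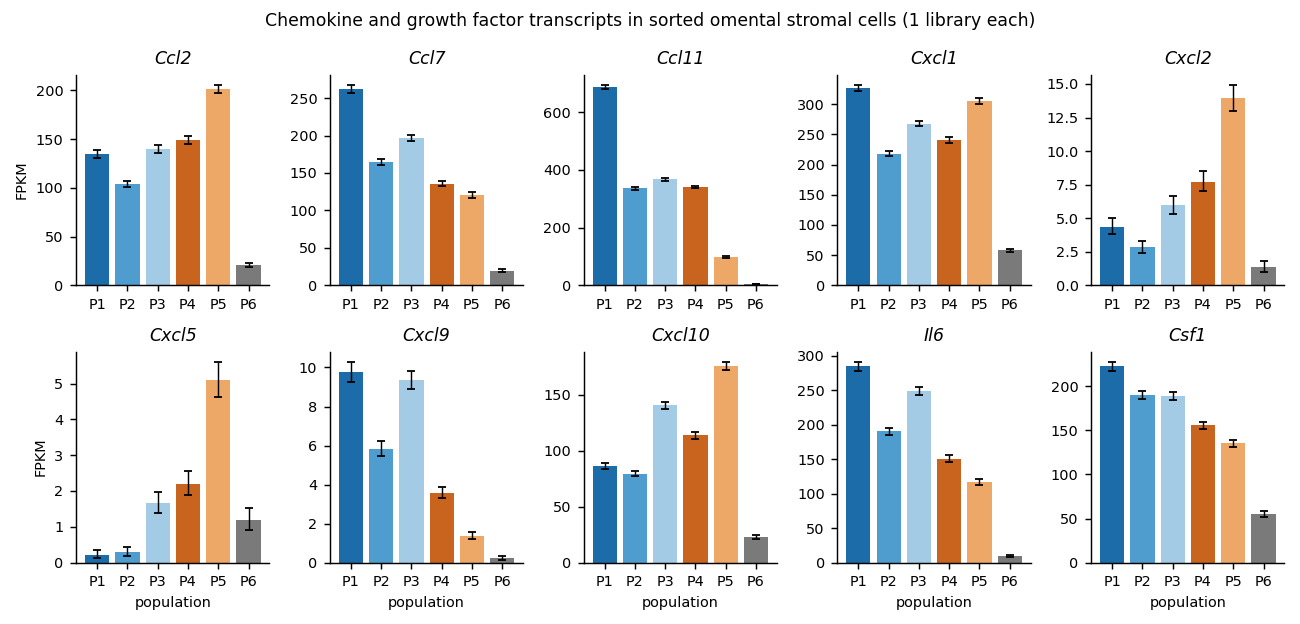
Level of each transcript in FPKM (vertical axes, which differ between panels and start at 0) in the 6 populations (horizontal axes). Bars are the 1 library of each population and error bars are exact 95% Poisson intervals for counting error. P6 had the lowest bar for every gene except *Cxcl5*, which was lowest in P1.

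In P1, *Ccl11* stood at 688 FPKM and ranked 91 among all genes. *Cxcl1* ranked 210, *Il6* 231, *Ccl7* 247, *Csf1* 291, *Ccl2* 473 and *Cxcl10* 758 in the same library. These 7 transcripts were thus abundant in CD140a+ cells taken from mice with no stated challenge, whereas *Cxcl2*, *Cxcl5* and *Cxcl9* were at 13.9 FPKM or less in every population. The FPKM of the 10 genes summed to 2019, 1292, 1569, 1300 and 1173 in P1 to P5, against 192 in P6. As a share of all FPKM, that was 0.495% in P1 and 0.297% in P5, the highest and lowest of the CD140a+ populations, and 0.0499% in P6.

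Against the CD140a+ populations, P6 was called lower when the lowest of P1 to P5 was at least 2 times P6 and had at least 1 FPKM (0.1 FPKM was added to both sides of every ratio used for a call). Of the 9 genes of the group that had at least 1 FPKM in all of P1 to P5, 9 were called lower in P6, where 4.01% of 10828 genes were. The call of *Cxcl2*, 2.12-fold (1.52 to 3.04), lay at the limit and was lost with a common FPKM sum or a pseudocount of 1, and that of *Cxcl9* was lost with a pseudocount of 1. *Cxcl5* did not enter because it was below 1 FPKM in P1 and P2. In P6 this gene was 5.78-fold (3.24 to 10.9) above P1 and 3.96-fold (2.47 to 6.66) above P2, but below P3, P4 and P5. None of the 9 tested was called higher in P6 than in the highest of P1 to P5, where 6.7% of 12043 genes were, and *Cxcl9* was not tested because it was below 1 FPKM in P6. In such bulk libraries, fewer cells that make a transcript and less of it per cell cannot be told apart.

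The monocyte chemokines *Ccl2* and *Ccl7*, neighbors on chromosome 11 (GRCm38.p6 chr11:82035577-82037452 and chr11:82045712-82047525), ran in different directions among CD140a+ cells. *Ccl2* was at 135, 104, 140, 149, 201 and 20.8 FPKM in P1 to P6. Its level was highest in P5 and close in P1, P3 and P4, where adjacent values lay within 25% of each other, but after division by *Gapdh* P1 was highest instead. *Ccl7* was at 262, 165, 197, 136, 121 and 19.5 FPKM. This gene was highest in P1 and declined toward the CD105- populations, so that P1 exceeded P5 2.18-fold (2.098 to 2.26). The difference was larger after division by *Gapdh*, with scaled levels of 318 in P1 and 95.9 in P5. Within populations, *Ccl7* exceeded *Ccl2* 1.95-fold in P1, and *Ccl2* exceeded *Ccl7* 1.67-fold in P5.

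The widest range over the 6 populations belonged to the eosinophil chemokine *Ccl11*, the next gene on chromosome 11 (chr11:82057832-82062955). It was at 688, 337, 368, 341, 97.4 and 4.50 FPKM in P1 to P6. P1 was high, P2, P3 and P4 lay within 25% of each other, P5 was low and P6 was near the bottom. P1 exceeded P2 2.04-fold (2.01 to 2.08), a ratio at the edge of the 2-fold limit that was no longer called with a common FPKM sum, and P4 exceeded P5 3.50-fold (3.39 to 3.61). From P5 to P6 the level dropped a further 21.7-fold (18.3 to 25.6). Without P6 its range was 7.06-fold, close to that of *Cxcl9* (7.07-fold) and below that of *Cxcl5* (24.8-fold). The 3 neighboring genes thus changed rank across the gates. *Ccl11* was 5.11 times *Ccl2* in P1 and 0.484 times *Ccl2* in P5.

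**Figure D2:**
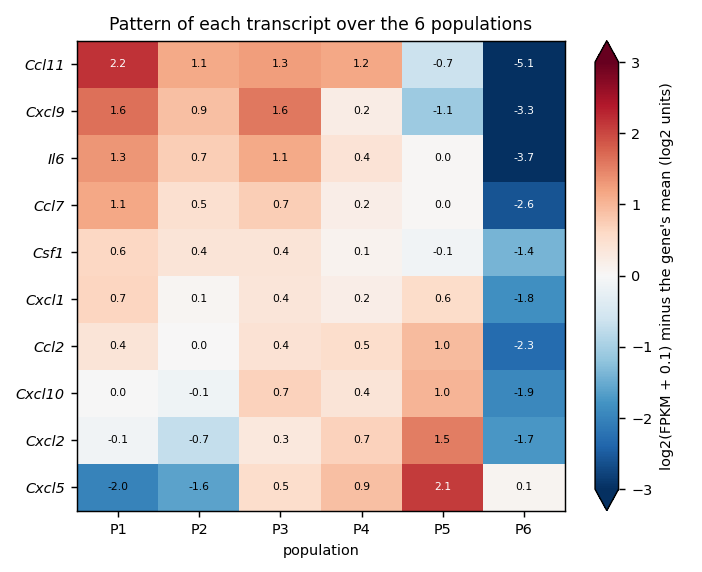
Colors and printed values give log2(FPKM + 0.1) minus the mean of the gene over the 6 populations, in log2 units, with genes in rows and populations in columns (the color scale ends at 3 in either direction). From *Ccl11* at the top to *Cxcl5* at the bottom, the maximum moves from P1 to P5, although *Ccl2* and *Cxcl10* have other maxima, P1 and P3, when levels are divided by *Gapdh*.

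The neutrophil chemokines lie together on chromosome 5 and differed widely in abundance. *Cxcl1* (chr5:90891245-90893121) was at 327, 218, 268, 241, 305 and 58.0 FPKM in P1 to P6. Every pair of neighbors in its order from P1 to P2 was within 25%, and in the deposited values it was the most even of the chemokines among CD140a+ cells, whereas *Ccl2* and *Cxcl10* were more even after division by *Gapdh*. *Cxcl2* (chr5:90903899-90905938) was at 4.38, 2.86, 5.95, 7.71, 13.9 and 1.35 FPKM. *Cxcl5* (chr5:90759298-90761625) was at 0.206, 0.301, 1.65, 2.19, 5.11 and 1.19 FPKM, of which the P1 value came from about 15 reads and the P2 value from about 25. Both were low in the ALDH high and intermediate CD105+ cells and highest in P5. P5 exceeded P1 3.18-fold (2.73 to 3.73) for *Cxcl2* and 24.8-fold (15.0 to 44.9) for *Cxcl5*. After division by *Gapdh*, the differences were smaller, with scaled levels in P1 and P5 of 5.31 and 11.1 for *Cxcl2* and of 0.249 and 4.06 for *Cxcl5*. Even in P5, *Cxcl1* was 21.9 times as abundant as *Cxcl2*.

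The CXCR3 ligands *Cxcl9* and *Cxcl10*, near each other on chromosome 5 (chr5:92321331-92328079 and chr5:92346638-92348889), also parted. *Cxcl9* was at 9.77, 5.85, 9.34, 3.58, 1.38 and 0.230 FPKM in P1 to P6. It was high in P1 and P3, which were within 25% of each other, and fell through P4 and P5. *Cxcl10* was at 86.2, 79.5, 141, 114, 176 and 22.6 FPKM. Its order began with P5, followed by P3 and P4, with P1 and P2 close to each other, whereas P3 led after division by *Gapdh*. The ratio of *Cxcl10* to *Cxcl9* consequently went from 8.83 in P1 to 127 in P5.

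*Il6* (chr5:30013114-30019975) was at 284, 190, 249, 151, 117 and 8.94 FPKM in P1 to P6. P1 and P3 were close, the CD105- populations were lower, and P6 was 13.1-fold (11.1 to 15.5) below P5. *Csf1* (chr3:107741048-107760469) was at 223, 190, 189, 156, 136 and 55.0 FPKM. It declined in small steps from P1 to P5, each within 25%, and then dropped 2.47-fold (2.31 to 2.63) into P6. *Csf1* was also the gene of the group with the smallest overall span, 4.05-fold, against 153-fold for *Ccl11*.

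As a description of the genes, their promoters were searched for short sequence motifs. Other genes low in P6 were not searched as a set, so a link between motifs and the levels in P6 was not tested. RefSeq windows (GRCm38.p6) from 250 bases before to 50 bases after the gene start were matched for 6 of the 10 genes, *Cxcl1*, *Cxcl2*, *Cxcl9*, *Cxcl10*, *Il6* and *Csf1*. *Ccl2*, *Ccl7*, *Ccl11* and *Cxcl5* were not matched. On either strand, the letters GGGANNTTC of a kB motif, bound by NF-kB, occurred in 6 of the 6 windows and in 3.94% of all 32851 windows. In *Cxcl1*, *Cxcl2*, *Il6* and *Csf1* the match began 71, 97, 44 and 153 bases before the start. These stretches, from genes of both orders of the populations, are shown 5′ to 3′ along each gene's strand, with the kB letters in capitals (read on the opposite strand in *Csf1*). In *Cxcl1* and *Cxcl2* matches on both strands overlap.
Cxcl1, chr5:90891162-90891196, plus strand: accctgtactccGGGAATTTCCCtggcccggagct
Cxcl2, chr5:90903790-90903824, plus strand: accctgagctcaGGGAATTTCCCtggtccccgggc
Il6, chr5:30013058-30013090, plus strand: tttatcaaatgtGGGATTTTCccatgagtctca
Csf1, chr3:107760602-107760634, minus strand: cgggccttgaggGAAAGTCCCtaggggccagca

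*Cxcl9* and *Cxcl10* also held the letters GAAANNGAA of an ISRE, the element bound by interferon-activated factors, which occurred in 2 of the 6 windows and in 8.56% of all windows. The ISRE match began 175 bases before the start of *Cxcl9* and 213 before that of *Cxcl10*, in each case upstream of the kB match at 154 and 159 bases. The AP-1 letters TGANTCA were found in *Cxcl9*, *Cxcl10* and *Il6* (7.81% of all windows), the GAS letters TTCNNNGAA in none of the 6 (8.30%), and the TATAAA letters in *Cxcl9* alone (13.6%). The 250 bases before each start of these CXCR3 ligands, whose levels ran in different orders over P1 to P5, are shown with the ISRE, kB and, in *Cxcl10*, AP-1 letters in capitals. In *Cxcl9* the kB letters read on the opposite strand, and its AP-1 letters lie 31 bases after the start, outside the stretch shown. A match describes the letters and not a bound site.
Cxcl9, chr5:92328080-92328329, minus strand: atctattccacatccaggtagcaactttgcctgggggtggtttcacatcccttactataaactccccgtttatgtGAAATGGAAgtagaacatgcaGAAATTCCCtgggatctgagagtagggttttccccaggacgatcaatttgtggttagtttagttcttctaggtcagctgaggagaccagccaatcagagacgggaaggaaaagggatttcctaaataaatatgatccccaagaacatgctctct
Cxcl10, chr5:92348890-92349139, minus strand: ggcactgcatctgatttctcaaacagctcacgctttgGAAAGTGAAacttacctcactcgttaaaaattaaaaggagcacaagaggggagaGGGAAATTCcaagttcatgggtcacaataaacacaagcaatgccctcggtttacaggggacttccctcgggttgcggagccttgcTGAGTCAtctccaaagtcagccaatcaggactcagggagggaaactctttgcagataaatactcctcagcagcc

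The next question was how the group differed with ALDH activity and with CD105 at matched levels of the other gate. A gene was called when the ratio was at least 2 in either direction and the higher side had at least 1 FPKM. Between P1 and P2, ALDH high and intermediate, 1 of the 9 genes tested was called higher in P1 (*Ccl11*), beside 0.957% of 11803 genes. None was called lower in P1, beside 4.23%. *Cxcl5* was not tested because it was below 1 FPKM on both sides. The remaining 8 were all higher in P1 without reaching the limit, from 1.08-fold for *Cxcl10* (1.04 to 1.13) to 1.67-fold for *Cxcl9* (1.54 to 1.81). The median log2 ratio of the 9 genes was 0.58, against -0.05 for all genes tested.

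**Figure D3:**
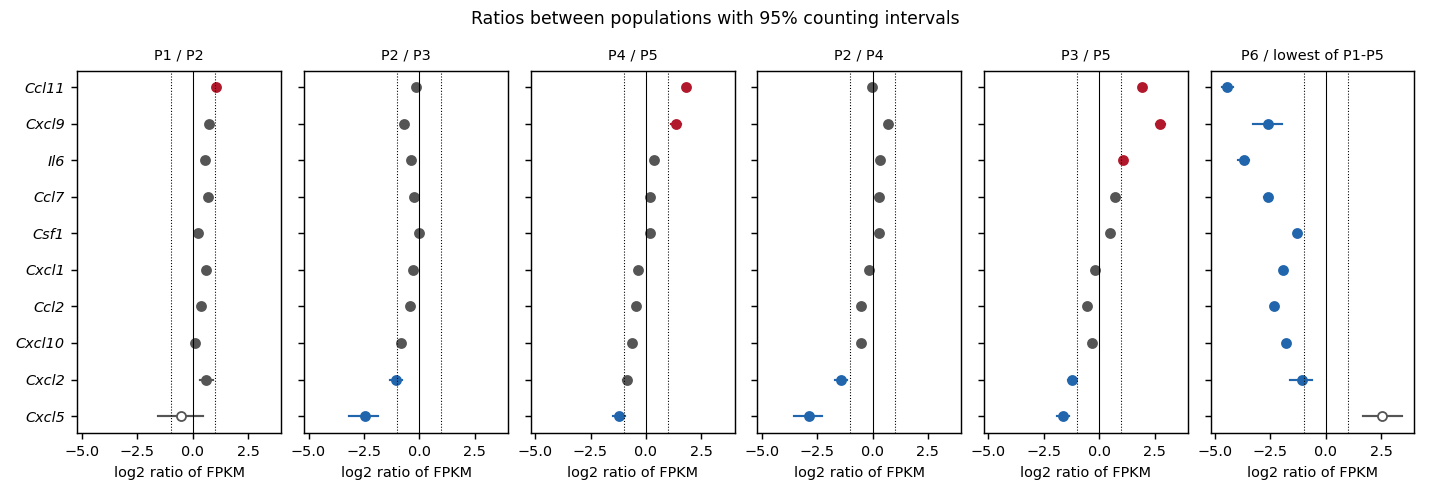
Log2 ratios of FPKM (horizontal axes) of the 10 genes (rows) in 6 comparisons, the last of which sets P6 against the lowest of P1 to P5. Lines are 95% intervals for counting error, dotted lines mark 2-fold, red and blue points were called higher or lower in the first-named population, gray points were not called and open points were below the minimum level. *Cxcl5* and *Cxcl2* lie on the left where CD105+ or ALDH intermediate cells are compared with P3, P4 or P5, and *Ccl11* and *Cxcl9* lie on the right in P4 over P5 and P3 over P5.

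Between P2 and P3, ALDH intermediate and low CD105+ cells, none was called higher in P2 (1.09% of 11980 genes) and 2 of 10 were called lower (2.56%). These were *Cxcl2*, 2.08-fold lower in P2 (1.72 to 2.53), and *Cxcl5*, 5.50-fold lower (3.65 to 8.98). The interval of *Cxcl2* included ratios below the limit, and its call was lost with median-of-ratios scaling, division by *Gapdh* or a pseudocount of 1. Between P4 and P5, the same ALDH step in CD105- cells, 2 were called higher in P4 (3.93% of 12022 genes) and 1 lower (1.44%). The higher genes were *Ccl11* and *Cxcl9*, the latter 2.59-fold (2.21 to 3.03), and the lower gene was *Cxcl5*, 2.33-fold (1.95 to 2.78). A pseudocount of 1 ended the calls of *Cxcl9* and *Cxcl5*. *Cxcl5* was therefore higher in ALDH low cells on both CD105 backgrounds, and *Cxcl2* passed the limit on only the CD105+ background, with 1.81-fold (1.60 to 2.04) in the other; the difference between backgrounds was not tested.

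Across CD105 at intermediate ALDH (P2 and P4), none was called higher in P2 (4.9% of 12181 genes) and 2 were called lower (7.63%). *Cxcl2* was 2.70-fold lower (2.24 to 3.26) and *Cxcl5* 7.30-fold lower (4.88 to 11.8) in the CD105+ cells. *Ccl11* was level at this step, with a ratio of 0.988 (0.968 to 1.009). Across CD105 at low ALDH (P3 and P5), 3 of 10 were called higher in P3 (7.33% of 12152 genes) and 2 lower (6.29%). *Ccl11* was higher 3.78-fold (3.67 to 3.90), *Cxcl9* 6.76-fold (5.87 to 7.79) and *Il6* 2.14-fold (2.05 to 2.23), while *Cxcl2* was lower 2.34-fold (2.06 to 2.68) and *Cxcl5* 3.09-fold (2.54 to 3.76). Division by *Gapdh* ended the call of *Cxcl2* in both CD105 comparisons, with log2 ratios of -0.94 in P2 over P4 and -0.68 in P3 over P5. The same scaling added calls on the higher side, of *Cxcl9* in P2 over P4 and of *Ccl7* and *Csf1* in P3 over P5, so that 1 was higher and 1 lower in P2, and 5 higher and 1 lower in P3. Shares over all genes moved likewise, to 10.2% higher and 4.98% lower in P2 and to 13.6% higher and 3.29% lower in P3. In P2 over P4 the median log2 ratio of the group was -0.08, the same as that of all genes, -0.08. In P3 over P5 it was 0.15, against -0.09 for all genes. The genes split in direction in both comparisons. P5, the ALDH low CD105- population, thus combined the lowest CD140a+ levels of *Ccl11*, *Cxcl9*, *Il6*, *Ccl7* and *Csf1* with the highest *Cxcl2* and *Cxcl5*.

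Patterns over all 6 populations were compared as centered log2 levels, and for the genes most alike the root mean square (RMS) difference is given in log2 units among 12053 genes with a mean of at least 1 FPKM. *Csf1* lay closest to *Mnda* (0.08), *Il6* to *Phlda1* (0.10), *Cxcl1* to *AI413582* (0.12) and *Ccl11* to *Scg3* (0.15). *Phlda1* was at 250, 177, 200, 124, 90.5 and 8.27 FPKM, close to the series of *Il6*. *Ccl7* was nearest to *Atp8b1* (0.17), *Ccl2* to *Adamts14* (0.20) and *Cxcl9* to *Lhx8* (0.23). *Cxcl5* was nearest to *Fam212b* (0.26). For *Cxcl10* the nearest were *Ubash3b* (0.18), *Il1r1* (0.18) and *Il4ra* (0.23), and for *Cxcl2* the nearest was also *Il1r1* (0.30). Within the group, *Ccl2* and *Cxcl10* were most alike (0.26), and *Cxcl10* held place 4 among all genes in likeness to *Ccl2*.

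*Il1r1*, the signaling receptor for IL-1, was at 58.0, 63.9, 101, 95.7, 169 and 20.6 FPKM in P1 to P6, and *Il4ra* was at 14.4, 11.4, 17.4, 15.1, 22.0 and 4.25 FPKM. Both are described because of their likeness to *Cxcl10*, and they were the 2 of 17 inducing receptors called lower in P6 than in each of P1 to P5, beside 4.01% of all genes tested. That likeness was measured over all 6 populations, P6 included, so these calls do not add to it. *Tnfrsf1a*, the main TNF receptor, was at 204, 196, 198, 164, 160 and 80.1 FPKM, and *Ifngr1* was at 95.1, 92.7, 101, 71.8, 65.1 and 44.8 FPKM. Other receptors of the list were not low in P6. *Il1rap*, *Il17rc* and *Tlr2* were highest there, at 6.09, 24.2 and 13.2 FPKM, although none of the 17 was called higher (6.7% of all genes). Over the lowest of P1 to P5, the median log2 ratio of the 17 in P6 was -0.02, against 0.27 for all genes tested. The inducing cytokines themselves were scarce in these cells. Of 9 listed, *Il33* had 54.2 to 169 FPKM, and *Il1a*, *Il1b*, *Tnf*, *Ifng*, *Il4*, *Il13*, *Il17a* and *Ifnb1* were at 0.456 FPKM or less in every library.

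**Figure D4:**
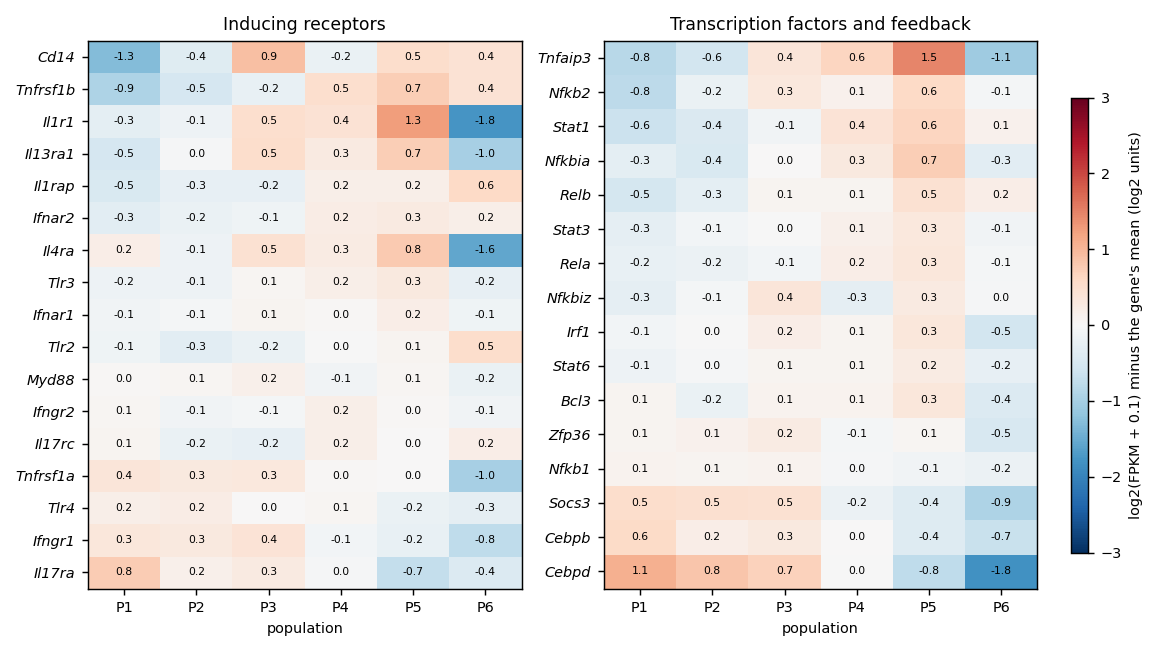
Log2(FPKM + 0.1) minus the mean of each gene over the 6 populations, in log2 units, for 17 receptors that can induce the chemokines (left) and 16 transcription factors and feedback regulators (right). Columns are populations and rows are ordered by the difference between P1 and P5. *Tnfaip3* and *Il1r1* peak in P5, *Cebpd* peaks in P1, and *Il1r1*, *Il4ra* and *Cebpd* are lowest in P6. *Il1rap*, *Il17rc* and *Tlr2* are highest in P6.

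Most of the 16 transcription factors and feedback regulators were not called in any comparison. *Tnfaip3*, an NF-kB target that limits NF-kB signaling, was at 7.89, 9.62, 18.3, 22.1, 39.6 and 6.75 FPKM in P1 to P6, and *Nfkbia*, which encodes the inhibitor IkBa, was at 169, 150, 207, 253, 343 and 165 FPKM. Both were highest in P5, like *Cxcl2* and *Cxcl5*. *Cebpd*, a factor that acts on the *Il6* promoter, was at 668, 561, 514, 313, 188 and 90.0 FPKM, and *Socs3*, a feedback inhibitor of IL-6 signaling, was at 1107, 1076, 1051, 678, 589 and 400.3 FPKM. Both were in the order of the populations, highest in P1 and lowest in P6, as was *Csf1*. *Cebpd* was called higher and *Tnfaip3* lower in P3 than in P5, *Tnfaip3* was called lower in P2 than in P4, and *Cebpd* was the 1 called lower in P6. Over all genes the shares were 7.33% and 6.29% for higher and lower in P3, 7.63% for lower in P2 and 4.01% for lower in P6. *Nfkbia* and *Socs3* did not pass the limit in these comparisons. Calls of this list were not rerun after division by *Gapdh*, which ended those of *Cxcl2* in both CD105 comparisons. *Nfkb1*, at 23.8 to 28.8 FPKM, differed little between populations, and *Nfkbiz* and *Zfp36* were highest in P3.

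Interferon response genes took more than 1 order. Of 11 tested, 5 were lower in P2 than in P4 and 4 lower in P3 than in P5, beside 7.63% and 6.29% of all genes tested. None was called lower in P6 (4.01% of all) and 1 was called higher, *Rsad2* (6.7%). *Oasl2* was at 20.97, 21.6, 23.5, 64.0, 63.8 and 115 FPKM in P1 to P6, and *Gbp2* was at 40.2, 41.9, 43.8, 98.1, 96.0 and 150 FPKM. Both were highest in P6, where *Cxcl9* and *Cxcl10* were lowest. *Iigp1* was at 29.2, 43.9, 70.0, 48.0, 65.5 and 35.1 FPKM and *Irgm1* at 25.5, 34.1, 45.4, 37.5, 42.4 and 35.1 FPKM. These were highest in P3 and P5, the populations with the highest *Cxcl10*. The median log2 ratio of the list was -0.85 in P2 over P4 and -0.85 in P3 over P5, where *Cxcl10* had -0.52 and -0.32. After division by *Gapdh*, which was not run on the list, *Cxcl10* had -0.04 and 0.22.

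Immediate-early genes, which are induced within minutes by many stimuli and by tissue dissociation, were abundant in all 6 libraries of these enzymatically digested tissues. *Fos* was at 1810, 2102, 2062, 1773, 1761 and 2317 FPKM and *Atf3* was at 393, 436, 455, 559, 665 and 934 FPKM in P1 to P6. In P6, *Fos* and *Atf3* had their highest deposited values, while *Junb* and *Nr4a1* had their lowest, at 1248 and 310 FPKM. Of the 12 genes listed, none was called lower in P6 than in each of P1 to P5, beside 4.01% of all genes tested, and 2 were called higher (*Hspa1a* and *Hspa1b*), beside 6.7%. *Ier3* was at 34.4, 48.2, 91.7, 304, 384 and 294 FPKM in P1 to P6. It was the 1 of 12 called lower in P2 than in P4 (7.63%) and in P3 than in P5 (6.29%), and none was called higher there (4.9% and 7.33%). *Zfp36*, which encodes an mRNA-destabilizing protein, was at 1777, 1841, 1980, 1593, 1752 and 1203 FPKM, lowest in P6. The part of dissociation in the levels of the chemokines was not tested.

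Other inflammatory chemokines were mostly scarce. Of 19 listed, *Ccl17*, *Ccl20* and *Cxcl15* (under its older symbol *Il8*) were listed at 0 in every library, and 8 had at least 1 FPKM on at least 1 side of the comparison of P1 with P2. *Ccl24*, a further eosinophil chemokine, was at 1.26, 4.31, 23.7, 9.83, 32.0 and 1.59 FPKM in P1 to P6. *Ccl24* was thus high in the ALDH low populations P3 and P5, whereas *Ccl11*, which uses the same receptor, was highest in P1. Of 8 tested, 4 were called lower in P1 than in P2 (*Ccl9*, *Ccl24*, *Cx3cl1* and *Pf4*), beside 4.23% of all genes, with a median log2 ratio of -0.94 where that of the group was 0.58. Of 8 tested, 4 were called higher in P3 than in P5 (*Ccl6*, *Ccl8*, *Ccl9* and *Cxcl14*), beside 7.33%, and none lower. None of the 4 tested for lower levels in P6 was called (4.01% of all genes).

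Among other growth factors, *Il34*, the second ligand of CSF1R, was at 2.69, 8.14, 43.9, 49.2, 99.4 and 25.9 FPKM in P1 to P6. Its order was the reverse of that of *Csf1* at its ends within the CD140a+ cells, lowest in P1 and highest in P5, and the ratio of *Csf1* to *Il34* went from 82.9 in P1 to 1.36 in P5. The genes for GM-CSF and G-CSF were low, *Csf2* at 0.488 FPKM or less and *Csf3* at 1.03 FPKM or less. Of the IL-6 family, *Lif* was at 12.7, 6.80, 6.13, 7.31, 5.42 and 1.64 FPKM and was the 1 of 5 growth factors tested that was called lower in P6, beside 4.01% of all genes. *Ctf1* of the same family was called higher there, at 14.5 FPKM in P6 and at most 3.42 FPKM elsewhere, 1 of 6 tested beside 6.7% of all genes. Of 6 tested, 4 were called lower in P2 than in P4 (*Il34*, *Kitl*, *Ctf1* and *Clcf1*), beside 7.63%, and 1 higher (*Flt3l*, 4.9%). Of 7 tested, 3 were called lower in P3 than in P5 (*Il34*, *Kitl* and *Clcf1*), beside 6.29%, and 1 higher (*Flt3l*, 7.33%).

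Transcripts of the signaling receptors for the chemokines were scarce in the same cells. *Ccr1*, *Ccr2*, *Ccr3*, *Cxcr1*, *Cxcr2* and *Cxcr3* were at 0.699 FPKM or less in every library. *Il6st*, which encodes gp130, was at 104 to 135 FPKM and *Il6ra* at 9.07 to 12.8 FPKM. *Csf1r* was at 0.763, 1.49, 1.66, 1.22, 0.885 and 11.6 FPKM in P1 to P6, highest in P6, while *Csf1* was lowest there. Of the other myeloid markers measured, *Cd68*, *Lyz2* and *Tyrobp* were also highest in P6. *Fcer1g*, *Adgre1*, *Cd163*, *S100a8* and *S100a9* were instead highest in P3, *Itgam* in P2 and *Mrc1* in P5. The atypical receptors bind chemokines without G protein signaling. *Ackr1*, which binds several of the inflammatory chemokines and was listed under its older symbol *Darc*, was at 51.2, 35.5, 24.5, 25.7, 12.3 and 8.14 FPKM, with the highest level in P1, as for *Ccl11*, *Ccl7* and *Il6*. *Ackr2* (listed as *Ccbp2*), which takes up inflammatory CC chemokines, was at 3.38, 2.30, 0.899, 2.02, 0.344 and 0.0314 FPKM, below 1 FPKM in P3, P5 and P6. *Ackr3* (listed as *Cxcr7*), a receptor for CXCL12, was at 194, 86.2, 46.9, 87.3, 16.5 and 60.8 FPKM and was called higher in P1 than in P2 (0.957% of all genes), in P4 than in P5 (3.93%) and in P3 than in P5 (7.33%). *Ackr1* and *Ackr2* were also called higher in P4 than in P5, which made 3 of 6 receptors tested, and *Ackr2* was called higher in P2 than in P3 (1.09%).

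**Figure D5:**
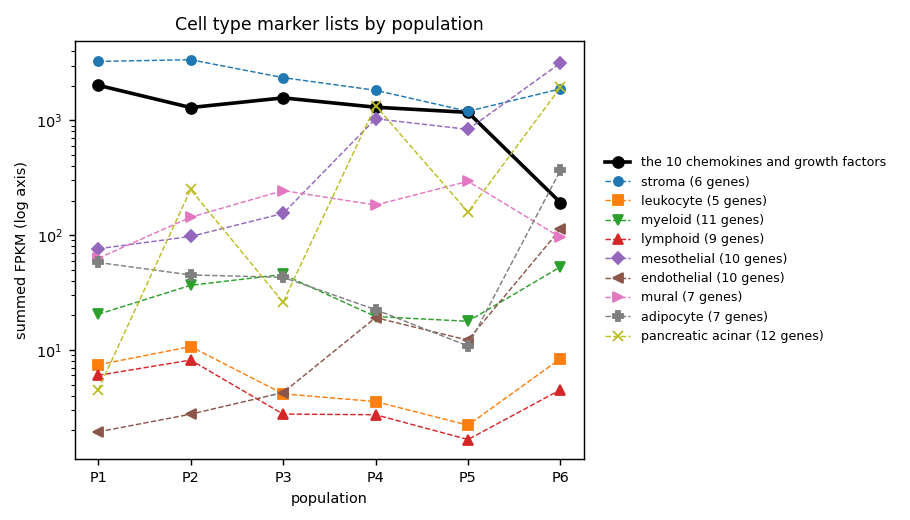
Summed FPKM (vertical log axis) of the 10 chemokine and growth factor genes (black) and of 9 cell type marker lists in the 6 populations (horizontal axis), 1 library each. The black line drops in P6, where the mesothelial, acinar, adipocyte, endothelial and myeloid lists are highest.

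Marker lists of other cell types moved with some of these differences. The 10 mesothelial markers summed to 76.1, 97.4, 154, 1032, 834 and 3156 FPKM in P1 to P6, and *Upk3b* was the most abundant in P6 at 1140 FPKM. They were high in P6 and intermediate in P4 and P5. The 12 pancreatic acinar markers summed to 4.50, 250, 26.0, 1342, 159 and 1937 FPKM, led by *Amy2a5* at 707 FPKM in P6. The 7 adipocyte markers summed to 57.8, 45.0, 42.9, 22.4, 10.8 and 368 FPKM, led by *Car3*, and *Lep* was at 0 in P6. All 3 lists were highest in P6, where the group was low, and their part in that result was not tested. The acinar markers also differed among the CD140a+ populations. All 12 were called lower in P1 than in P2 (4.23% of all genes), higher in P2 than in P3 (1.09%) and higher in P4 than in P5 (3.93%). All 12 were also called lower in P2 than in P4 (7.63%) and in P3 than in P5 (6.29%). Of the mesothelial markers, 9 of 10 tested were called lower in P2 than in P4 and 8 of 9 lower in P3 than in P5. Their median log2 ratios were -5.15 and -3.63. In addition, 4 of 7 were called lower in P2 than in P3 (2.56% of all genes), and 2 of 10 higher in P4 than in P5 (3.93%). Whether the acinar or mesothelial markers bear on the differences of the group in these comparisons was not tested either. The 10 endothelial markers summed to 1.93, 2.76, 4.26, 19.1, 12.2 and 113 FPKM, of which *Esam* and *Kdr* gave 62.0 and 46.9 FPKM in P6, and *Erg* was at 0 there. The 7 mural markers summed to 62.9, 143, 245, 183, 294 and 95.5 FPKM, led by *Des*. Other mural markers were high in P6, where 3 of 5 tested were called higher (*Cspg4*, *Acta2* and *Mcam*), beside 6.7% of all genes. *Notch3*, 1 of 3 tested, was called lower there (4.01%).

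Leukocyte transcripts were low beside the summed FPKM of the group, but not beside its scarce genes. *Cxcl2*, *Cxcl5* and *Cxcl9* were at 13.9 FPKM or less, and *Lyz2* alone was at 7.74 FPKM in P5 and 26.6 FPKM in P6. The 5 leukocyte markers summed to 7.43, 10.7, 4.15, 3.55, 2.21 and 8.41 FPKM in P1 to P6 and the 9 lymphoid markers to 6.01, 8.16, 2.76, 2.73, 1.66 and 4.50 FPKM. The 11 myeloid markers measured, of 12 listed, summed to 20.4, 36.6, 45.4, 19.5, 17.8 and 52.9 FPKM, led by *Lyz2* in every library, and *S100a8* and *S100a9* were listed at 0 in P4 and P6. *Ly6g* was not matched. The myeloid sum was highest in P6. Of 6 myeloid markers tested there, 2 were called higher than in each of P1 to P5 (*Cd68* and *Csf1r*), beside 6.7% of all genes. Across CD105, all 3 leukocyte and all 3 lymphoid markers tested were called higher in P2 than in P4 (4.9%). Of 8 myeloid markers tested, 4 were higher and 1 lower in P2 than in P4 (4.9% and 7.63%). In P3 over P5, 5 of 8 were higher and 1 lower (7.33% and 6.29%). Their part in the differences of the group was not tested. Myeloid and leukocyte sums were lowest in P5, but not every myeloid marker was low there. *Mrc1* was highest in P5, with 0.314, 0.841, 1.30, 2.34, 3.83 and 2.72 FPKM in P1 to P6, and *Cd68*, at 2.67 FPKM in P5, was higher than in P1 to P4. The 6 stromal markers summed to 3259, 3371, 2354, 1826, 1198 and 1879 FPKM, of which *Col1a1* gave 1735 FPKM in P6. *Col1a1* and *Pdpn* (125 FPKM) were highest in P6, whereas *Dpt* and *Vcam1* were lowest there at 8.70 and 3.54 FPKM.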

How the data were processed

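RNA-seq was analyzed for 6 sorted stromal populations with 1 library each. Tissue had been digested with Liberase TM and DNase I before sorting, and libraries were sequenced as single-end 76 bp reads. The authors deposited FPKM values per gene, and the submitters' processing notes name TopHat2 2.0.7, Cufflinks 2.1.1 and mm10. The annotation was not given in the sources used here. Rows that shared a symbol (252 symbols) were summed, leaving 23352 genes. Ratios for calls used log2(FPKM + 0.1), with a 2-fold limit and a minimum of 1 FPKM on the higher side. Depth was estimated from 3262 genes with a single GENCODE M21 transcript of at least 800 bases, as the number of reads that puts low values at whole reads, assuming a mean fragment of 200 bases. At that depth, 54.2% to 60.5% of values of up to 10 reads lay within 0.05 of a whole number. Reads of the 10 genes used their shortest coding transcript of at least 400 bases. Genes named are the 10 genes, the fixed pathway and marker lists, and for each gene reaching 5 FPKM the 3 most alike. The members and lists were chosen with earlier results of these data known. Which listed genes are described was chosen after their values were seen. A listed receptor is not reported here. Steps were tested on simulated data (Python 3.11.15, numpy 2.4.6, pandas 2.3.3, scipy 1.17.1, matplotlib 3.10.9). Alternatives covered scaling, pseudocount, limits and repeated symbols.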

Additional observations from a re-analysis of the deposited data

Results flagged for a closer look

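*Cxcl9* changed in opposite directions with ALDH activity in CD105+ and CD105- cells. In CD105+ cells it was lower at intermediate than at low ALDH, with 5.85 FPKM in P2 and 9.34 FPKM in P3, a log2 ratio of -0.67. In CD105- cells it was higher at intermediate ALDH, with 3.58 FPKM in P4 and 1.38 FPKM in P5, a log2 ratio of 1.31. The difference between the log2 ratios was -1.98. Each change was past 1.5-fold, and with 1 library for each population the difference was not tested.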

How the results depend on the processing

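No paired analysis was possible because there was 1 library for every population. The count of genes lower in P6 (9) was 7 to 9 and that of genes higher in P6 was 0 under every alternative run, including P6 against the median of P1 to P5 and, chosen after seeing the data, against P1 to P3 or P4 and P5 alone. *Cxcl2* lost its call with a common FPKM sum, and *Cxcl2* and *Cxcl9* with a pseudocount of 1. No called ratio changed sign. Other counts rested on few genes near a limit. For genes higher in P1 than in P2 (1), the count was 0 with a common FPKM sum, 4 at a limit of 1.5-fold and 0 at 3-fold. For genes lower in P2 than in P3 (2), it was 1 with median-of-ratios scaling, division by *Gapdh*, a pseudocount of 1, a 3-fold limit or a minimum of 5 FPKM, and 4 at 1.5-fold. For P4 over P5, genes higher (2) became 1 with a pseudocount of 1, a 3-fold limit or a minimum of 5 FPKM, and genes lower (1) became 0 with a pseudocount of 1 or a 3-fold limit and 3 at 1.5-fold. For P2 over P4, genes higher (0) became 1 with *Gapdh* or 1.5-fold, and genes lower (2) became 1 with *Gapdh*, 3-fold or a minimum of 5 FPKM. For P3 over P5, genes higher (3) became 5 with *Gapdh*, and genes lower (2) became 1 with *Gapdh* and 0 at 3-fold. The cause was not tested beyond the construction of each setting. *Gapdh* itself was at 214, 218, 224, 302, 326 and 270 FPKM in P1 to P6. Division by it moved the median log2 ratio of all genes from -0.08 to 0.39 in P2 over P4 and from -0.09 to 0.45 in P3 over P5, and the share of called genes that were higher from 39.1% to 67.3% and from 53.8% to 80.5%. It also moved the highest population of *Ccl2* to P1 and of *Cxcl10* to P3, the 2 of 40 such results that changed. Its divisors were 0.826 in P1 and 1.26 in P5, so ratios between P1 and P5 moved for every gene. Of 420 log2 ratios of single genes under the alternatives, 337 stayed within their counting interval and 83 moved beyond it. Depth limits *Cxcl5* in P1 and P2 and *Cxcl9* in P6, which rested on about 15, 25 and 23 reads.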
